A study of Xenopus laevis with 6 samples.

Results

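The ErbB receptors and their EGF-type ligands were followed in Xenopus laevis animal pole explants, the cap of blastula cells that becomes epidermis when left alone and can be turned to other fates by signals. The members were chosen by name: every gene of the deposited data whose symbol, without the L or S suffix, was egfr, erbb2, erbb3, erbb4, nrg1, nrg2, areg, hbegf, ereg or tgfa. Of 49281 genes, 18 met this rule, of which 7 were receptor homeologs, 3 neuregulin homeologs and 8 homeologs of other ligands. Homeologs are the L and S copies that this allotetraploid frog carries of many genes. For erbb4 and nrg1 this rule found an L copy and no S copy, so the L copy alone was analysed.

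Explants of wild type embryos were cultured from stage 9 to stage 17 in DMSO, the vehicle, or in K02288 with CHIR99021, and RNA was sequenced in bulk at stage 17. K02288 inhibits BMP type I receptors and CHIR99021 inhibits GSK3, which activates canonical Wnt signalling. The labels call the controls epidermal and the treated explants neural crest-reprogrammed, with 3 libraries in each group, lettered a, b and c in the deposited data. They name no clutch, number of explants or dose. Whether libraries of a group came from separate clutches is not stated, and the p-values therefore reflect variation among these libraries that may be technical. Values are given below in the order of libraries a, b and c.

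ErbB receptors are tyrosine kinases that signal as dimers. Ligands of the EGF type bind EGFR, ErbB3 or ErbB4, while ErbB2 has no known ligand of its own and serves as a partner, and ErbB3 has a weak kinase and relies on its partner to signal. Neuregulins bind ErbB3 and ErbB4, amphiregulin and TGF-alpha bind EGFR, and HB-EGF and epiregulin bind EGFR and ErbB4. In mouse and zebrafish, neuregulin signals through ErbB2 and ErbB3 guide neural crest cells toward the Schwann cell lineage, and in mammalian skin EGFR signalling governs keratinocyte growth.

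Gene reads per library numbered 33706389 to 43155031. The group labels were checked against marker genes. Among 14 homeologs of neural crest markers 13 were higher in treated explants, their summed level being 626 to 891 normalized counts in controls and 41902 to 82795 in treated libraries. Of these, foxd3.S and both sox10 copies had no read in controls. They passed the mean filter only through the treated libraries, so their place in this count is no support for a rise. Epidermal markers were lower for 13 of 16 homeologs and higher for 1, with a summed level of 1331336 to 1756158 in controls and 219446 to 552027 in treated libraries, and none was without reads in either group. Treated library a stood apart from b and c: it held the most of all 14 crest marker homeologs, of 13 of the 16 epidermal ones and of all 12 multiciliated cell ones among the treated libraries. The same held for 8 of 11 ionocyte homeologs, but for 1 of 10 neural and 0 of 7 hatching and cement gland ones. Library a was also highest for only 2 of 8 goblet and small secretory, 2 of 11 mesoderm and 2 of 9 endoderm homeologs. Its score on the first principal component (80.8% of variance) was 106, between the controls at -170 to -156 and libraries b and c at 187 and 196. All 12 multiciliated and all 11 ionocyte marker homeologs were lower in treated explants, or 10 of the ionocyte ones under upper quartile scaling. Of the ionocyte homeologs, 1 had no read in treated libraries. It passed the mean filter only through the controls, so its place in this count is no support for a fall. Neural markers were higher for 5 of 8 tested homeologs, hatching and cement gland markers for 6 of 7 and endoderm markers for 3 of 5. Among the 7 hatching and cement gland homeologs, 1 had no read in controls and passed the mean filter only through the treated libraries. Its place in that count is no support for a rise. A lower level was called for 1 endoderm homeolog and for none of the neural or the hatching and cement gland ones. Of 5 goblet or small secretory marker homeologs 3 were lower and 1 higher, and of 4 mesoderm ones 1 was lower and 1 higher. All these marker counts, crest and epidermal ones included, stand beside 26.1% of all tested genes higher and 29.7% lower. The mesoderm counts were near those shares. The summed goblet and small secretory level overlapped between groups, at 8776 to 11274 in controls and 8637 to 14187 in treated libraries.

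All 5 tested receptor homeologs and 3 of 6 tested ligand homeologs were lower in treated explants, and both hbegf copies were higher. By limma with trend on log2(normalized count + 1), with Benjamini-Hochberg adjustment over all 22932 genes with a mean of at least 10, 11 of the 18 members could be tested. Of these, 8 were lower, 2 were higher and tgfa.L did not pass an adjusted p of 0.05. Across all tested genes 29.7% were lower and 26.1% higher, 55.8% in all, so a changed gene was common in this comparison. Upper quartile scaling turned this split to 8108 higher and 5594 lower genes, from 5995 and 6811, and kept all 10 calls of members. The edgeR count test on whole reads called 54.0% of genes, and 7 members lower and 2 higher. A lower ligand, areg.S, passed the mean filter only through the controls, where it was high, so its place in these counts and in those of overlap and the median below is no support for a fall. The median log2 fold was -2.80 over the 11 tested members and 0.01 over all genes tested. Control and treated values did not overlap for 10 of the 11, against 64.9% of all genes. Members were chosen with earlier results of these data known, so these counts and the median describe the members beside all genes and test nothing. The other 7 members had too few reads for the test, and 2 of them had none. In bulk RNA, fewer cells of a type and less RNA per cell cannot be told apart.

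**Figure D1:**
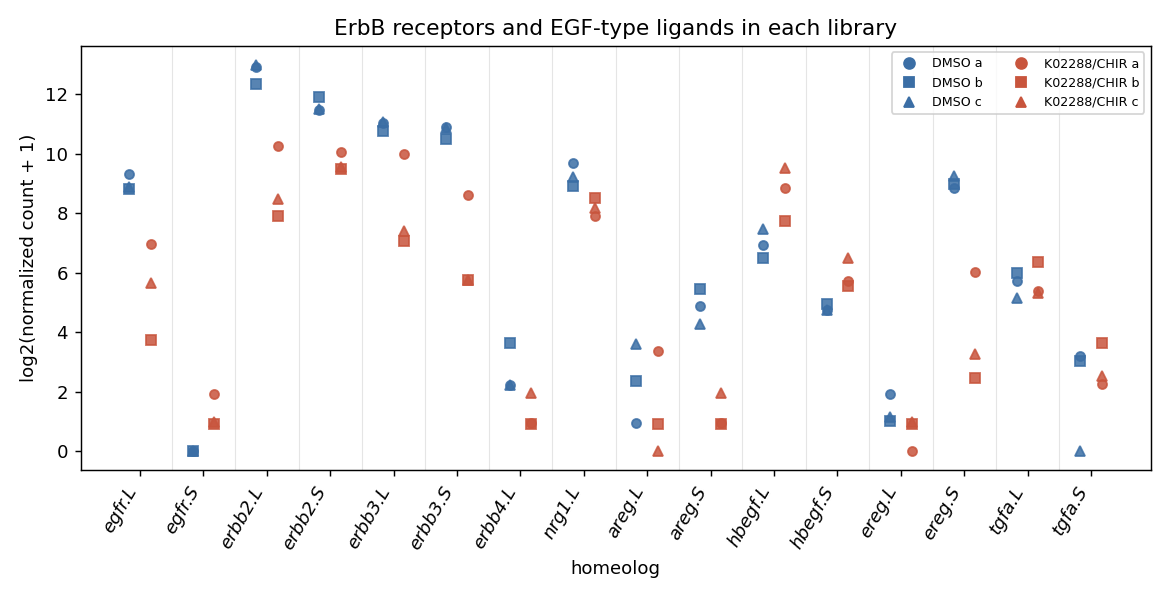
Level of each member that had reads, as log2(normalized count + 1), in the 3 DMSO libraries (blue) and the 3 K02288/CHIR libraries (red), with the letter of a library shown by the shape of its point. Red points lie under all blue points for the receptors egfr.L, erbb2 and erbb3 and for nrg1.L, areg.S and ereg.S, and over them for both hbegf copies, while tgfa.L overlaps.

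All 5 tested receptor homeologs fell. The egfr.L transcript, which encodes the receptor of EGF itself, had 634, 455 and 469 normalized counts in the controls. In the treated libraries it had 125, 12.5 and 49.6. The groups did not overlap, and within the treated group library a was highest and b lowest. The fitted log2 fold was -3.54 ± 0.75 (SE; limma adjusted p = 0.00650), with means of 519 ± 99.4 and 62.5 ± 57.5 (SD, n = 3). Leaving out treated library a gave -4.30 and leaving out b -2.69. The S copy of egfr was almost silent, with 0 reads in the controls and 3, 1 and 1 in the treated libraries, too few for a fold. It was left out by the mean filter, and with no filter it passed as higher (limma adjusted p = 0.0436).

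The erbb2.L transcript, for the partner receptor, had 7807, 5171 and 8070 normalized counts in the controls. The treated libraries held 1240, 241 and 356. Every treated library was thus below every control, and the log2 fold came to -3.86 ± 0.57 (limma adjusted p = 0.00149), or -4.55 without treated library a. The mean was 11.5 times higher in controls. For erbb2.S the control values were 2874, 3886 and 2928 and the treated ones 1072, 724 and 751. This copy fell less and varied less between the treated libraries, and its log2 fold was -1.94 ± 0.20 (limma adjusted p = 0.000414), the means being 3.80 times apart.

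The gene erbb3, whose product receives neuregulin signals, fell in both copies. For erbb3.L the controls held 2098, 1721 and 2127 normalized counts and the treated libraries 1007, 134 and 167. Library a therefore kept 50.8% of the control mean, and b and c 6.77% and 8.42%. The log2 fold was -2.80 ± 0.71 with limma adjusted p = 0.0140. This call was lost without treated library c (limma adjusted p = 0.0521) and in the edgeR count test (adjusted p = 0.0546). Without treated library a the log2 fold was -3.71. For erbb3.S the controls held 1930, 1454 and 1854 and the treated libraries 395, 53.4 and 53.4. Library a kept 22.6% of the control mean of this copy and b and c 3.06% each. Its log2 fold was -4.04 ± 0.75 (limma adjusted p = 0.00368), or -4.99 without treated library a.

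The remaining receptor, erbb4.L, another neuregulin receptor, was close to silent. It had 4, 11 and 3 reads in the controls and 1, 1 and 3 in the treated libraries, and its mean of 3.91 normalized counts was below the minimum for the test. Its normalized counts were 3.67, 11.4 and 3.71 in controls and 0.942, 0.889 and 2.86 in treated libraries, which did not overlap but rest on few reads, and no change is stated for it.

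**Figure D2:**
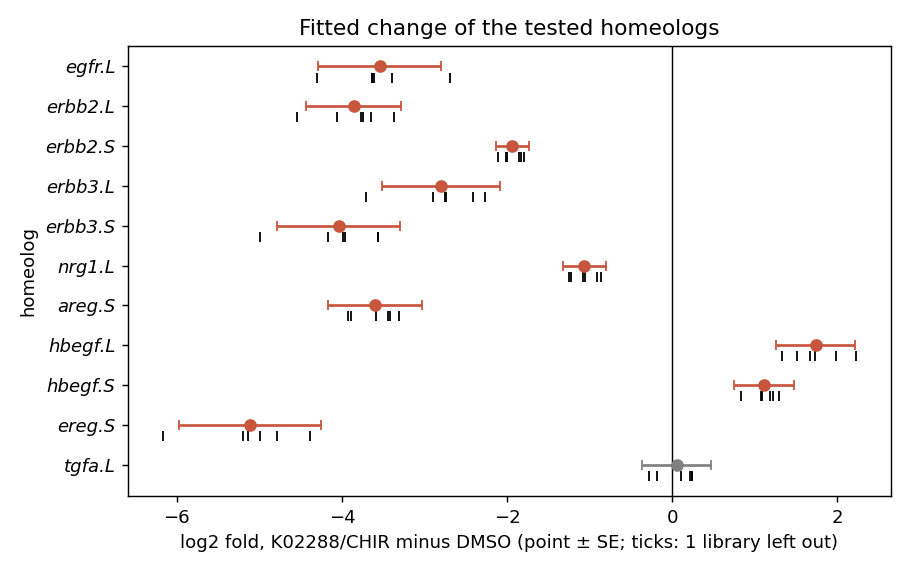
Fitted log2 fold (K02288/CHIR minus DMSO) of the 11 tested homeologs, with points and bars for the estimate ± SE (red where the limma adjusted p was under 0.05, grey otherwise) and black ticks for the 6 fits with 1 library left out. The 8 lower homeologs range from -5.11 for ereg.S to -1.06 for nrg1.L, and the ticks of tgfa.L lie on both sides of 0.

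Neuregulins were represented by nrg1.L alone. It had 821, 480 and 602 normalized counts in the controls and 240, 368 and 291 in treated libraries. The groups did not overlap, but the fitted fall was the smallest among the 8 lower members, with a fold on the log2 scale of -1.06 ± 0.26 (limma adjusted p = 0.0118). Means were 634 ± 173 and 300 ± 64.4 (SD, n = 3). Unlike most of the lower members, nrg1.L was lowest in treated library a. No read of nrg2.L or nrg2.S, which encode a second neuregulin, was counted in any library. With 221751550 gene reads over the 6 libraries, a count of 0 allows up to 0.0135 RPM for each copy, a limit that covers counting error only.

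The EGFR ligands moved in different directions. Epiregulin, from ereg.S, had 459, 500 and 611 normalized counts in the controls, and 64.1, 4.45 and 8.58 in the treated libraries. This was the largest fitted fall among the tested members, with the log2 fold at -5.11 ± 0.86 (limma adjusted p = 0.00247). The fit gave -6.17 without treated library a and -4.38 without b. In the L copy 5 reads were counted in all controls together and 2 in all treated libraries.

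Amphiregulin reads in controls came mostly from the S copy. The areg.S transcript had 31, 41 and 15 reads in the controls and 1, 1 and 3 in treated libraries, or 29.8 ± 12.0 and 1.56 ± 1.12 normalized counts (SD, n = 3). It reached the mean filter through the controls, and its log2 fold was -3.60 ± 0.57 (limma adjusted p = 0.00195). At these counts the fold depended on the pseudocount, being -2.36 with a pseudocount of 5. For areg.L the reads were 1, 4 and 9 in controls and 10, 1 and 0 in treated libraries, overlapping and too few for the test.

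HB-EGF, a ligand that also binds heparan sulfate, was the one ligand among the members that passed the test as higher in treated explants. Its L copy, hbegf.L, had 122, 90.1 and 175 normalized counts in the controls and 463, 213 and 740 in treated libraries. The lowest treated library was above the highest control. The log2 fold was 1.74 ± 0.48 (limma adjusted p = 0.0193), and the adjusted p was 0.0544 without DMSO library a, 0.0626 without DMSO b and 0.0566 without treated c. The S copy, hbegf.S, had 25.7, 30.0 and 25.9 in controls and 51.8, 46.2 and 89.6 in treated libraries, again without overlap. Its log2 fold was 1.11 ± 0.37 (limma adjusted p = 0.0365). That call was lost without DMSO library a (limma adjusted p = 0.0937), b (0.0723) or c (0.0917), without treated library c (0.110) and with no mean filter (0.0653). The log2 fold itself was 1.08, 1.18 and 1.08 without DMSO library a, b and c, and 0.83 without treated library c. Both copies passed in the edgeR count test, with adjusted p = 0.0172 for L and 0.0342 for S, as did the fit with library letter as a block.

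TGF-alpha transcripts showed no call. The tgfa.L values were 52.3, 63.2 and 34.6 normalized counts in the controls and 40.5, 80.9 and 39.1 in treated libraries, which overlapped. The log2 fold was 0.05 ± 0.42 (SE; limma adjusted p = 0.923), and an error of this size leaves room for a change in either direction. The S copy had 9, 7 and 0 reads in controls and 4, 13 and 5 in treated libraries.

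Among the 8 lower members, 6 were highest in library a of the treated group: egfr.L, both erbb2 copies, both erbb3 copies and ereg.S. The exceptions were nrg1.L and areg.S. The share of all lower genes that were highest in library a was not computed, so the pattern is not shown to be particular to the members. On the first principal component, library a also lay between the controls and libraries b and c. Library a held 4.04 times the mean of b and c for egfr.L, 4.16 times for erbb2.L, 1.45 times for erbb2.S, 6.69 times for erbb3.L, 7.40 times for erbb3.S and 9.84 times for ereg.S. The summed epidermal markers were 552027 in treated library a and 219446 and 279967 in b and c, and the summed crest markers 82795, 41902 and 58508. The part of either cell type in these levels was not tested. Without treated library a the counts were again 8 lower and 2 higher members, where 7029 of all genes were lower and 5949 higher. The 8 include areg.S, which passed the mean filter only through the controls. The filter was applied anew in this fit, so these gene counts are not shares of the 22932 genes of the main fit. In the main fit 29.7% of all tested genes were lower and 26.1% higher.

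**Figure D3:**
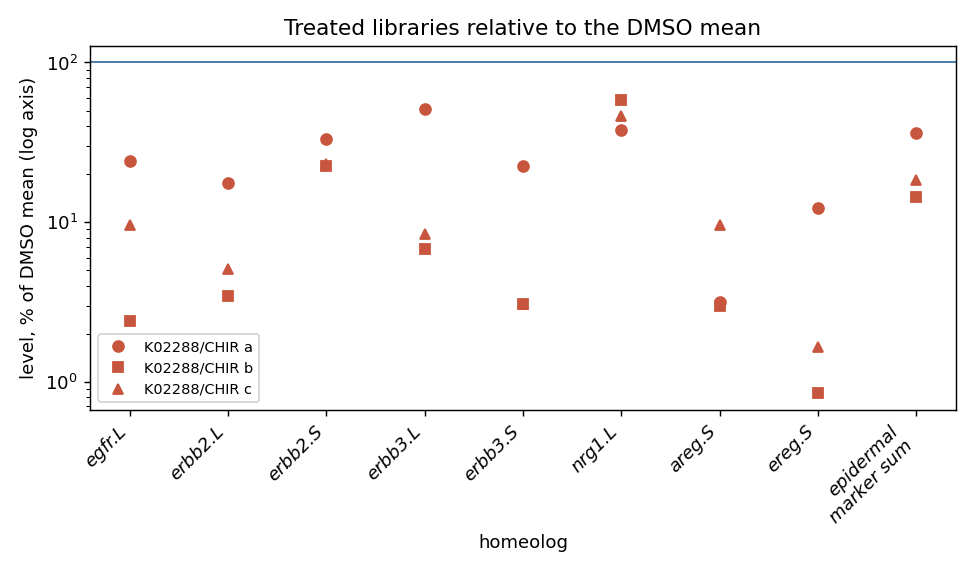
Level of the 8 lower homeologs, and of the 16 epidermal marker homeologs summed, in treated libraries a, b and c as a percentage of the DMSO mean (log axis), with the DMSO mean drawn as a blue line at 100%. Library a (circles) lies over b and c for egfr.L, erbb2, erbb3, ereg.S and the marker sum, and not for nrg1.L and areg.S.

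The L and S copies of a gene did not always fall by the same amount. The log2 ratio of L to S was compared between groups for the 5796 symbols with both copies past the mean filter, of which 38.0% changed by limma with an adjusted p under 0.05. Only erbb2, erbb3 and hbegf among the members had both copies in this test. For erbb3 the L copy made up 52.1%, 54.2% and 53.4% of the reads of both copies in the controls and 71.8%, 71.6% and 75.8% in treated libraries. The S copy thus fell more, in every treated library including a. The log2 ratio moved by 1.24 ± 0.17 (limma adjusted p = 0.00248), and the call held in all 13 alternatives run, with a range of 1.14 to 1.30.

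In erbb2 the L copy fell more. Its share of reads was 73.1%, 57.1% and 73.4% in the controls and 53.6%, 25.0% and 32.2% in treated libraries. DMSO library b stood below the other controls and treated library a above the other treated libraries, but the groups did not overlap. The log2 ratio of L to S moved by -1.92 ± 0.49 (limma adjusted p = 0.0210). This call was lost without DMSO library a (limma adjusted p = 0.0706), DMSO c (0.0697), treated b (0.0573) or treated c (0.0697), and the change ranged from -2.43 to -1.54 in the fits with 1 library left out.

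For hbegf the ratio moved by 0.62 ± 0.45, which did not pass (limma adjusted p = 0.312). The L share was 75.0% to 87.1% in controls and 82.1% to 89.9% in treated libraries. In egfr, ereg, areg and tgfa 1 copy was under the filter. Pooled over the controls, L gave 100% of egfr reads (95% exact binomial interval 99.8% to 100%), 0.337% of ereg reads (0.110% to 0.785%), 13.9% of areg reads (7.79% to 22.2%) and 90.1% of tgfa reads (84.5% to 94.2%), counting error only. In treated libraries L gave 97.5% of egfr reads (94.4% to 99.2%), 2.38% of ereg reads (0.290% to 8.34%), 68.8% of areg reads (41.3% to 89.0%) and 88.8% of tgfa reads (83.6% to 92.9%). By library, the L share of areg was 3.13%, 8.89% and 37.5% in controls and 90.9%, 50% and 0% in treated libraries, which overlapped. Of the 11 treated areg.L reads, 10 were in library a, so no change of the areg share is stated. Reads that align to more than 1 place were lost to both copies. They made up 11.1% of reads in DMSO library a and 4.93% to 5.91% in the other libraries, so shares between near-identical copies are uncertain. Shares also depend on the lengths of the copies, which were not used, whereas the change of a ratio does not.

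**Figure D4:**
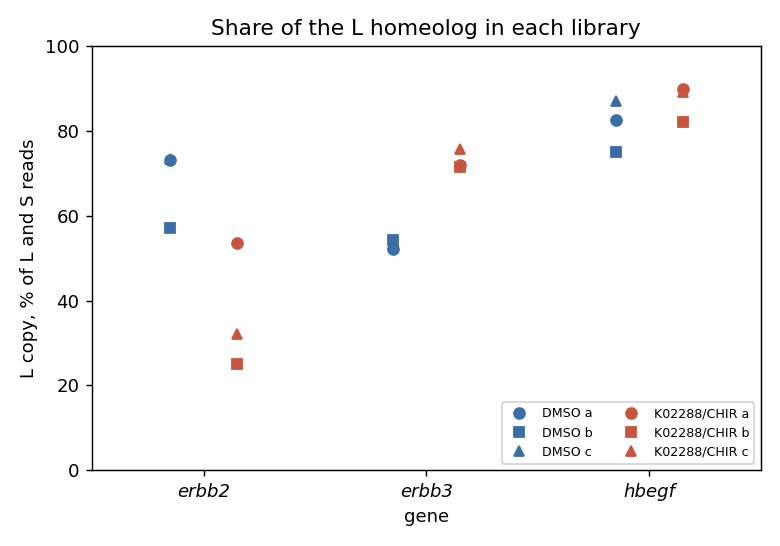
Share of the L copy in the reads of L and S together, in percent, for erbb2, erbb3 and hbegf, the members with both copies tested, in each DMSO (blue) and K02288/CHIR (red) library. For erbb3 the treated libraries lie at 71.6% to 75.8% against 52.1% to 54.2% in controls, for erbb2 at 25.0% to 53.6% against 57.1% to 73.4%, and for hbegf the groups overlap.

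In the RefSeq annotation of Xenopus_laevis_v10.1, areg and ereg stand in 1 block with btc and epgn, the genes of betacellulin and epigen, in the order btc, areg, ereg, epgn on both 1L and 1S, with 1 further locus between btc.S and areg.S. Their calls differed. On 1S, ereg.S fell. The call of areg.S was also lower, but it passed the mean filter only through the controls, so that call is no support for a fall. In contrast to ereg.S, btc.S had 1262, 1332 and 1403 normalized counts in the controls and 866, 1409 and 977 in treated libraries. Its log2 fold came to -0.33 ± 0.20 (limma adjusted p = 0.199). The epgn.S values were 8.27, 21.8 and 25.9 in controls and 20.7, 0.889 and 8.58 in treated libraries and did not pass (limma adjusted p = 0.290). On 1L, btc.L had 1.84, 0 and 7.41 in controls and 8.48, 24.9 and 38.1 in treated libraries, with a rise on the log2 scale of 2.88 ± 0.93 (limma adjusted p = 0.0345), reached through the treated libraries. That call was lost without DMSO library a (limma adjusted p = 0.0815) or b (0.0877), without treated library b (0.0939) and in the edgeR count test (adjusted p = 0.0506), and the log2 fold was 2.12 without DMSO b and 3.66 without DMSO c. No read of epgn.L was counted. Of the 8 homeologs of egf, btc, epgn, nrg3 and nrg4, 3 could be tested and 1, btc.L, was higher, beside 26.1% of all genes. As btc.L passed the mean filter only through the treated libraries, this count is no support for a rise.

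Genes that release ligands from the cell surface were more often lower than higher. Of 16 tested homeologs of 10 symbols, 7 were lower and 2 higher, with a median log2 fold of -0.55, beside 29.7% of all genes lower and 26.1% higher. The inactive rhomboids rhbdf1 and rhbdf2, which escort the sheddase ADAM17, fell in both L copies: rhbdf1.L went from 304 ± 28.5 to 37.3 ± 15.1 normalized counts and rhbdf2.L from 1836 ± 310 to 192 ± 133 (SD, n = 3). Treated library a held 346 of rhbdf2.L against 113 and 117 in b and c, and the mean of controls was 9.56 times that of treated libraries, or 15.9 times without library a. The metalloprotease gene adam9.S fell by 1.68 on the log2 scale. The gene bace1, whose protease cleaves neuregulin 1 in mouse, rose by 2.47 ± 0.41 in S and by 1.34 ± 0.41 in L. The call of bace1.L was lost without any 1 library other than treated a, with limma adjusted p of 0.0528 to 0.0902, and with no mean filter (0.0597), and both copies were low, at 9.30 and 8.78 normalized counts in controls. Both passed the mean filter only through the treated libraries, so the 2 higher calls of this list are no support for a rise.

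Feedback and turnover genes of the receptors moved both ways, with 8 of 25 tested homeologs higher, 7 lower and a median log2 fold of 0.27, or 13 higher under upper quartile scaling. These shares, 32% higher and 28% lower, were near the 26.1% and 29.7% of all genes. Upper quartile scaling also turned all genes to 8108 higher and 5594 lower. The leucine-rich repeat genes lrig1 and lrig3 were among the rises: lrig1.L, whose protein promotes loss of ErbB receptors from the cell, went from 71.4 ± 2.15 to 528 ± 127 normalized counts, and lrig3.S from 106 ± 36.3 to 1749 ± 807. The ubiquitin ligase gene cblb.S rose by 3.58 ± 0.25 on the log2 scale. Its relative cblc.S, with 71 control reads and none after treatment, was at least 26.4-fold lower against a floor of 3 reads over the treated group. As cblc.S passed the mean filter only through the controls, its place among the 7 lower calls is no support for a fall. The gene socs5.S, for a suppressor protein linked to EGFR degradation, fell by 3.26 on the log2 scale. Named after its values were seen, errfi1, an inhibitor of ErbB kinases, fell in both copies, with log2 folds of -1.30 ± 0.23 for L (limma adjusted p = 0.00303) and -1.85 ± 0.36 for S (limma adjusted p = 0.00436).

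Further along the pathway, the Ras to ERK cascade was mostly lower, with 9 of 16 tested homeologs lower, 1 higher and a median log2 fold of -0.95. Across all tested genes 29.7% were lower and 26.1% higher, with a median log2 fold of 0.01. The GTPase genes nras.L and kras.L fell by 1.43 and 1.22 on the log2 scale and the kinase gene araf.L by 1.47. The scaffold gene ksr1.L rose by 0.76 ± 0.21, a call lost without DMSO library c (limma adjusted p = 0.0513). Of 33 adaptor and PI3K homeologs, 10 were lower, 5 higher and 18 not called, with a median of -0.04, but upper quartile scaling turned this to 6 lower and 12 higher with a median of 0.25. Their 30.3% lower and 15.2% higher stand beside 29.7% and 26.1% of all genes. The same scaling turned all genes to 5594 lower and 8108 higher. Of the PI3K regulatory subunit genes, named here by their low adjusted p, pik3r3.L rose from 39.1 ± 7.42 to 609 ± 195 and pik3r2.L from 156 ± 8.35 to 424 ± 60.4 normalized counts. The catalytic subunit gene pik3cb.L fell by 2.42 on the log2 scale and the adaptor gene shc1.L by 1.22.

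Genes that respond to ERK showed no single direction, with 8 of 28 tested homeologs lower, 5 higher and a median log2 fold of -0.63, or 5 lower and 7 higher under upper quartile scaling. Their lower share of 28.6% was near the 29.7% of all genes, and 17.9% were higher against 26.1%. Under that scaling all genes also had more higher than lower calls, 8108 against 5594. The AP-1 factor gene fosl2.S fell from 440 ± 2.65 to 38.3 ± 15.7 normalized counts, and dusp5.S, for an ERK phosphatase, by 1.93 on the log2 scale. The gene of another ERK phosphatase, dusp6.S, rose by 1.92 ± 0.32, and the immediate early gene ier2.S by 0.86 ± 0.14. Named after its values were seen, dusp6.L went the other way, at -0.82 ± 0.25 (limma adjusted p = 0.0266). That call was lost under upper quartile scaling (limma adjusted p = 0.0874), and without any 1 DMSO library or treated library c (0.0533 to 0.0880).

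Genes of Schwann cells and their precursors were tested in 7 of 16 homeologs, of which 2 were higher and 3 lower, with a median log2 fold of -0.23 that upper quartile scaling moved to 0.05. Higher calls made up 28.6% and lower calls 42.9% of the 7, beside 26.1% and 29.7% of all genes. The transcription factor gene egr2.L, which acts in Schwann cells and in the hindbrain, had 13.8, 13.5 and 18.5 normalized counts in controls and 2539, 110 and 528 in treated libraries. Its log2 fold of 5.04 ± 1.02 (limma adjusted p = 0.00544) became 3.91 with treated library a left out and 6.17 with b left out. The myelin protein gene pmp22.S rose by 3.40 ± 0.49. The myelin gene mbp.L fell from 137 ± 43.2 to 7.33 ± 5.52, with a log2 fold of -4.39 ± 0.75, or -3.53 without treated library c. The co-receptor gene gfra3.L had 129 reads in controls and none in treated libraries, at least 48.2-fold lower. Both mbp.L and gfra3.L passed the mean filter only through the controls, where they were high. Their place among the 3 lower calls of this list is therefore no support for a fall.

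**Figure D5:**
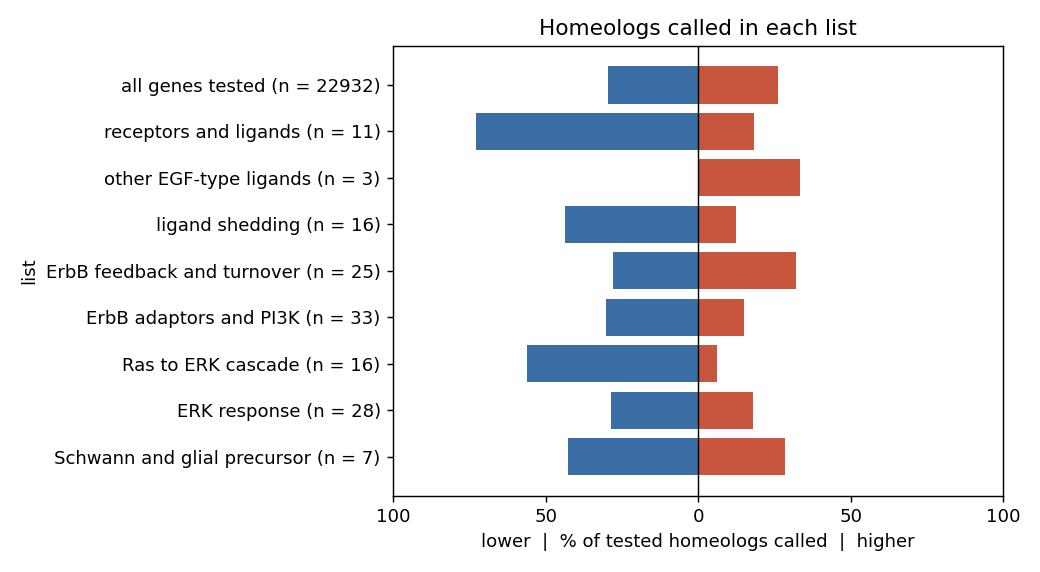
Percentage of tested homeologs that were lower (blue, to the left) or higher (red, to the right) in K02288/CHIR than in DMSO explants, by limma adjusted p under 0.05, for all genes, for the receptors and ligands and for each list of pathway genes, with the number tested in parentheses. Lower calls outnumber higher ones in every row, all genes included, except ErbB feedback and turnover and the other EGF-type ligands. The latter row rests on 1 call of 3 tested, btc.L, which passed the mean filter only through the treated libraries. All genes stand at 29.7% lower and 26.1% higher.

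The genes most like egfr.L, erbb2.L, erbb3.L and erbb4.L, the receptor copies with the higher mean count (for erbb4 the copy analysed), were sought by the root mean square difference of log2(normalized count + 1), centred per gene, over the 6 libraries, among symbols with a mean of at least 50. With 6 libraries in 2 groups this is a description of level across these libraries. For erbb3.L the nearest of 15079 genes was grhl3.L, an epidermal transcription factor gene, at a difference of 0.136, followed by vtcn1.L at 0.156 and cast.S at 0.157. In detail, grhl3.L had 11424, 10719 and 10789 normalized counts in the controls and 6186, 917 and 1009 in treated libraries, with library a over b and c as for erbb3.L. Nearest to erbb2.L were lnx1.L at 0.161, cplane1.L at 0.171 and clcn3.S at 0.187. Nearest to egfr.L were anxa9.L at 0.198, ptk2b.S at 0.235 and greb1.L at 0.257. For erbb4.L, with few reads, jun.S at 0.218, ezr.L at 0.314 and slc25a39.L at 0.321 were nearest, an order that counting error can change.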

How the data were processed

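Per the file headers, the authors deposited a normalized signal for each gene in each library together with their own fit, whose columns are a mean signal, log2 folds and their errors, a test score and p-values. The submitters' processing notes name DESeq and no version. How reads were aligned and counted, and on which build, the labels do not say. Each signal was a read count over a library size factor: whole reads could be recovered for 100% of 184429 nonzero values, to within 0.01 reads. A row with a broken gene name was rejoined, and 5 summary rows of the read counter were left out. Reads in no gene were 10.9% to 12.8% of reads.

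Since the values are normalized, the main test was limma 3.58.1 with trend on log2(value + 1), all 6 libraries, genes with a mean of at least 10, two-sided, Benjamini-Hochberg over all genes. On this log2(value + 1) scale the change of a low gene comes out too small. The L to S ratio was tested the same way over all copy pairs. edgeR 4.0.16 called 12390 genes (54.0%) on the recovered reads, and DESeq2 1.42.0 was a further alternative (R 4.3.3, Python 3.11.15). The fits were also run on simulated counts, drawn independently for each library, with no pairing by letter and no deviating library. That run cannot show how the fits handle these features of the data. Libraries of the same letter deviated together from their group means (correlations of 0.326, 0.402 and 0.319 over 22932 genes), so the letters were taken as pairs in the alternative fit with a block, though no label ties a letter to a replicate number. The median log2 fold over all genes shifted by 0.30 under upper quartile scaling, relative to which changes under that scaling are to be read.

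Named genes were all members, in each pathway list the 4 homeologs of lowest adjusted p at most and 2 at most called the other way, and 3 genes nearest the copy of each receptor with the higher mean count. A gene that this rule names is not reported here. Of the 18 members 14 matched the RefSeq gene table. Members and lists were chosen with earlier results of these data known.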

Additional observations from a re-analysis of the deposited data

How the results depend on the processing

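The 8 lower members numbered 7 or 8 in all 15 alternatives, including both scalings, the edgeR and DESeq2 count tests and each library left out. The 2 higher members, both hbegf copies, numbered 0 to 2 with 1 library left out and 1 with a mean of at least 50, since hbegf.S was then not tested. With the replicate block, by library letter, 2 members were higher and 8 lower, and the block changed no call of a member, of a copy ratio or of a named pathway gene. The other EGF-type ligands had 0 or 1 call with 1 library left out, 2 with no mean filter, and 0 with a mean of at least 50 or by edgeR, against 1 (btc.L, which was not tested without treated library c). The Schwann and glial list had 8 calls with no mean filter against 5. tgfa.L, which was not called, ranged from -0.28 to 0.24 in log2 fold with 1 library left out, negative at -0.18 without DMSO library c and at -0.28 without treated library b. The copy ratio test called 1552 to 2575 pairs over its alternatives against 2201. Low read numbers limit areg, egfr.S, erbb4.L, ereg.L and tgfa.S. Where 1 library is left out, its group rests on 2 libraries, and the fit pools the spread over both groups.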
